A study of Homo sapiens with 13 samples.

Results

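Ribosome biogenesis factors are the proteins that transcribe, modify, cut and package ribosomal RNA in the nucleolus. The 37 genes described here are a list of named pathway members, drawn up with earlier results of these data known, and all 37 were found among the 24875 gene symbols of the Silvestrol table and the 13101 symbols of the INK128 table. They comprise 8 genes of RNA polymerase I (Pol I) and its initiation factors, 8 genes of the small nucleolar ribonucleoproteins (snoRNPs), 3 genes of abundant nucleolar proteins, 9 genes of large (60S) subunit assembly and 9 genes of small (40S) subunit assembly. Pol I makes a single long precursor of ribosomal RNA. The snoRNPs then methylate and pseudouridylate it, and the assembly factors fold and cleave it into the 2 subunits. The pathway is known for its high demand in dividing tumour cells and for its dependence on mTOR and MYC activity.

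All samples came from MDA-MB-231, an established human line of triple-negative breast cancer. In the Silvestrol experiment, ribosome footprints (RF, the mRNA fragments covered by ribosomes) were sequenced from 7 libraries. These were 1 untreated culture, 1 culture with the solvent DMSO and 1 with 25 nM Silvestrol harvested at 1 h, and 2 cultures per treatment harvested at 2 h. The 2 h cultures were cells of passage 3 and of passage 4, and the other Silvestrol experiment libraries were of passage 3. mRNA was sequenced from 1 culture with DMSO and 1 with Silvestrol at 2 h, both of passage 3. Silvestrol inhibits eIF4A, the RNA helicase that unwinds 5′ untranslated regions (5′ UTRs) ahead of the scanning ribosome. In the INK128 experiment, RF and total RNA were each sequenced from 1 culture with DMSO and 1 with 200 nM INK128 for 2 h. INK128 blocks the catalytic site of mTOR, the kinase that controls, among others, the translation of mRNAs that begin with a run of pyrimidines. In the labels, 1 field gives 1 h for the passage 3 Silvestrol library listed as 2 h, and 1 field calls the DMSO mRNA library untreated. Passages of a single cell line are the only replicates, so p-values measure the spread between these cultures. With at most 2 libraries per group, that spread was estimated partly from all genes together.

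Counted reads ranged from 2652423 to 31188148 in the RF libraries, lowest in both passage 4 libraries (2652423 with Silvestrol and 6446356 with DMSO). The mRNA libraries held 50315607 (DMSO) and 24792922 (Silvestrol) counted reads. The depth of the INK128 libraries is unknown, because only FPKM values were used from them. Of the markers of this cell type, VIM was between 4790 and 7030 RPKM (reads per kilobase of transcript, scaled to library depth) in the RF libraries, and CD44, EGFR and AXL were all above 18 RPKM. ESR1 was at 0 in every RF library and PGR and CDH1 did not exceed 0.108 RPKM, while ERBB2 reached 4.05 RPKM. CD3E and PECAM1 had no RF reads, PTPRC and CDH5 did not exceed 0.0513 RPKM, and the fibroblast genes COL1A1 and COL1A2 did not exceed 1.79 RPKM.

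At the DNA level, 31 of the 37 genes could be matched to a RefSeq promoter sequence (GRCh38.p14, 250 bases before to 50 bases after the gene start). A C followed by at least 4 pyrimidines at the annotated start, the form known as a 5′ terminal oligopyrimidine (TOP) motif, was present in 3 of the 31. It was present in 4.04% of all 27305 promoters and in 5.31% of the promoters of genes tested for footprint changes. By comparison, 44 of 69 cytosolic ribosomal protein genes had it. The first 15 transcribed bases of these 3 members are shown, with the pyrimidine run in capitals, together with 2 members that lack it and that had low footprint changes with INK128 or with Silvestrol.
NPM1 (chr5:171387849-171387863, plus strand): CTTTCCCTggtgtga
FBL (chr19:39846365-39846379, minus strand): CTTTTCCacgtgcga
NOB1 (chr16:69754912-69754926, minus strand): CTCTCacgcagccaa
POLR1D (chr13:27620743-27620757, plus strand): actccgccctcgccg
WDR12 (chr2:202911659-202911673, minus strand): gtagaagggcaacct

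The sequence CACGTG, the E-box that MYC binds and which reads the same on both strands, was found in 9 of the 31 promoters (29.0%). It was present in 7.43% of all promoters and in 10.5% of the 7520 promoters of genes that were tested for footprint changes. The 9 members were PNO1, RRP9, NOP14, BYSL, LTV1, NOP2, NOP10, FBL and PES1. In FBL the E-box starts at the last base of the pyrimidine run shown above. Windows of 10 bases on each side of the E-box (in capitals) are given for 3 members with the motif near the start, including both copies in NOP10.
NOP10, distal copy (chr15:34343291-34343316, minus strand): agggacactcCACGTGttttagcctg
NOP10, proximal copy (chr15:34343132-34343157, minus strand): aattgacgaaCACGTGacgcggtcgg
BYSL (chr6:41921517-41921542, plus strand): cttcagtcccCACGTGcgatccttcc
RRP9 (chr3:51941894-51941919, minus strand): gttcagctgcCACGTGagttctgcgg
A match to these letters describes the DNA only. The median mRNA change with Silvestrol was -0.30 in the 9 members with the E-box and -0.19 in the 22 without it (log2, centred on all genes).

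The 5′ UTRs of the members were short. Their median annotated length was 68 nt, against 134 nt over the 9084 tested genes with an annotation. EMG1 (11 nt), NOC2L and NOB1 (both 16 nt) had the shortest, and UBTF (298 nt), TAF1C (229 nt), WDR12 (197 nt) and NOP58 (179 nt) had the longest.

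In control cells, footprint levels of the members differed widely. Over the 4 control RF libraries (untreated, DMSO 1 h and both DMSO 2 h), the highest median levels were those of NCL (nucleolin, which binds nascent ribosomal RNA) at 669 RPKM, FBL (fibrillarin, the methyltransferase of box C/D snoRNPs) at 617 RPKM and NOP10 (a small protein of the box H/ACA snoRNPs, which pseudouridylate RNA) at 529 RPKM. The lowest were NPM1 (nucleophosmin) at 2.59 RPKM, TAF1C (a subunit of the Pol I promoter factor SL1) at 5.18 RPKM and NHP2 (another H/ACA protein) at 5.99 RPKM. The median member was at 59.2 RPKM. NCL (603 to 820 RPKM) was above FBL (486 to 646 RPKM) and NOP10 (488 to 597 RPKM) in each of the 4 libraries, while the ranges of FBL and NOP10 overlapped and their order is not resolved. The values of NPM1 and NHP2 rest on few reads, between 15 and 38 and between 8 and 37 per control library, although in the INK128 table NPM1 had the highest footprint level of all members (850 FPKM with DMSO) and NHP2 stood at 122 FPKM. The Silvestrol table counts only uniquely placed reads. Both genes are kept in the member counts below. Where the main count of a Silvestrol comparison differs without them, that count is given too.

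**Figure D1:**
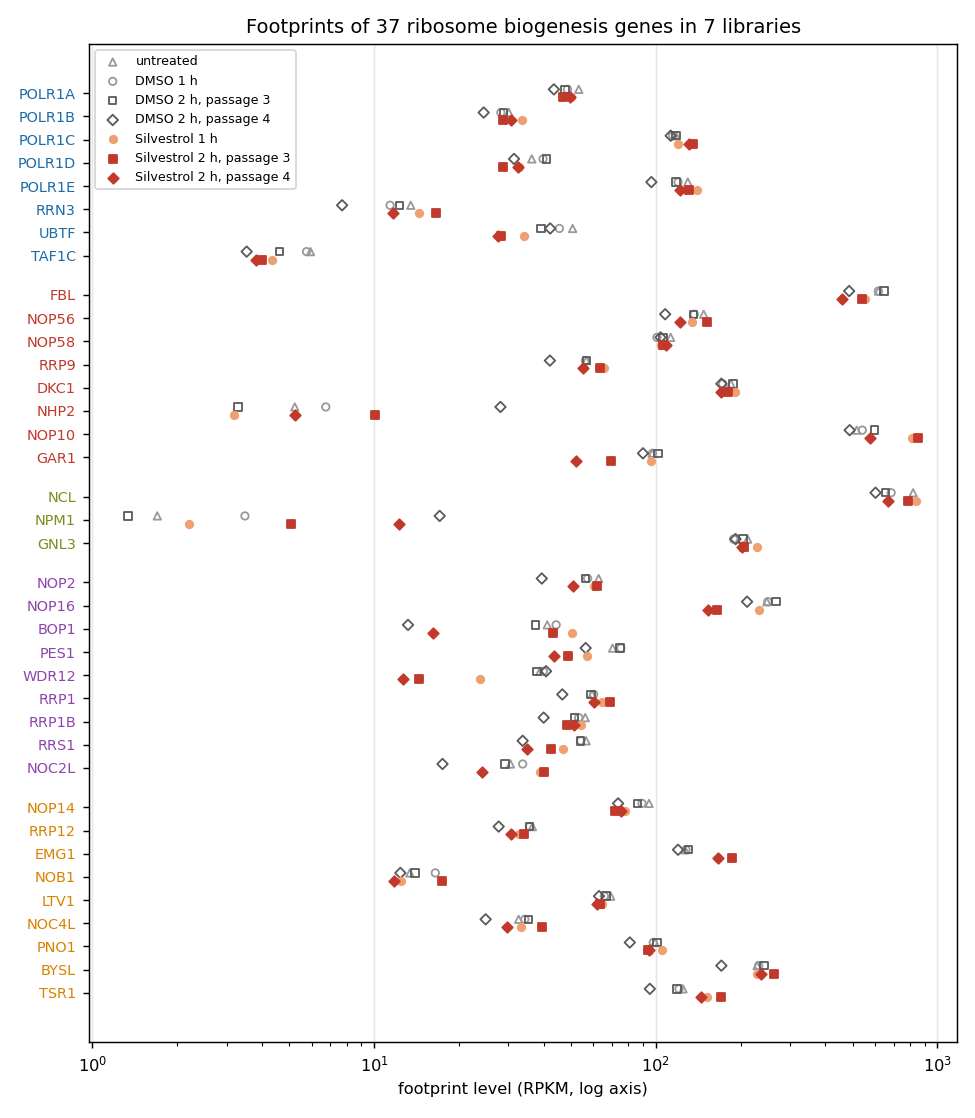
Footprint level (RPKM, log axis) of each of the 37 members in the 7 RF libraries of the Silvestrol experiment, grouped by role (name colours); open grey symbols are controls and filled symbols are Silvestrol. In WDR12 all 3 Silvestrol values (12.7 to 23.7 RPKM) lie below the 4 controls (37.9 to 40.8 RPKM), whereas most members overlap, and NHP2 and NPM1 scatter widely.

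The first comparison asked which members gained or lost footprints after 2 h of Silvestrol. WDR12 fell and TSR1 rose, and no other member passed the test without a term for the passage (edgeR's quasi-likelihood test on read counts, Benjamini-Hochberg adjusted p under 0.05 over 10526 genes). Of the 37 members, 1 (2.70%) was called lower, when 7.58% of all tested genes were, and 1 was called higher, when 2.16% of all tested genes were. The median log2 change was 0.24 over the members and -0.01 over all genes. With the passage as a block (each Silvestrol culture compared with the DMSO culture of its passage), 3 members were called lower and 16 higher (8.11% and 43.2%), against 28.1% and 25.0% of all genes. The direction was shared by both passages in most members, as it was in most genes. After centring each RPKM ratio on its median over all genes, 25 members were above that median in both passages, 5 were below it in both and 7 were on opposite sides (5 of 35 without NHP2 and NPM1), when 40.4% of all genes were above it in both and 40.4% below it in both.

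WDR12, 1 of the 3 proteins of the PeBoW complex that is needed for maturation of the 60S subunit, had the strongest loss. Its RF level was 38.8 RPKM in the untreated library, 39.9 with DMSO at 1 h, and 37.9 (passage 3) and 40.8 (passage 4) with DMSO at 2 h. With Silvestrol it was 23.7 RPKM at 1 h, 14.4 at 2 h in passage 3 and 12.7 at 2 h in passage 4. The 3 Silvestrol libraries thus lay below all 4 controls, and both 2 h libraries below the 1 h library. The log2 change at 2 h was -1.18 ± 0.20 (SE, n = 2 per group, adjusted p = 0.035 by edgeR) and -1.12 with the passage block (adjusted p = 3.7e-11), and 6.30% of all tested genes had a lower log2 change. Leaving out either Silvestrol library ended the call (adjusted p = 0.25 and 0.21), as it did for every other called gene. PES1 and BOP1, the other proteins of the complex, were called in neither direction without the block. PES1 had 70.3 RPKM in the untreated library, 75.2 with DMSO at 1 h and 74.6 and 56.4 with DMSO at 2 h, and with Silvestrol 56.9 at 1 h and 49.0 and 43.5 at 2 h. Its log2 change of -0.22 ± 0.13 (SE) was not called (adjusted p = 0.31 by edgeR, 0.084 with the block), although it was called with the block and a correction for the counted length of each transcript (-0.38, adjusted p = 0.0054 by edgeR). BOP1 had 37.5 and 13.2 RPKM with DMSO at 2 h and 43.1 and 16.2 RPKM with Silvestrol. Its log2 change of 0.55 ± 0.29 (SE) was called only with the block (adjusted p = 0.26 by edgeR, 0.0012 with the block). The counted length behind its RPKM differed 1.96-fold between the DMSO libraries of the 2 passages, and in reads scaled to library depth alone it had 36.6 and 25.2 RPM with DMSO and 51.2 and 35.4 RPM with Silvestrol, so that the groups overlapped. The changes of these 3 genes were not tested against each other.

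Among the other 60S factors, NOP16 was called lower and NOC2L, RRP1 and NOP2 higher by edgeR with the block, and none of them by edgeR without it. NOP16 had 267 (passage 3) and 211 RPKM (passage 4) with DMSO at 2 h and 165 and 153 RPKM with Silvestrol, so that both Silvestrol values lay below both DMSO values. Its log2 change was -0.47 ± 0.19 (SE, adjusted p = 0.17 by edgeR and 7.6e-05 with the block). NOC2L, whose yeast counterpart escorts 60S precursors out of the nucleolus, had 29.2 and 17.5 RPKM with DMSO at 2 h and 40.1 and 24.2 RPKM with Silvestrol. It was higher with Silvestrol within each passage. The groups overlapped in RPKM, whose counted length for this gene differed 1.59-fold between the passages, but not in reads scaled to library depth alone (38.3 and 36.5 RPM with DMSO, 57.0 and 55.6 RPM with Silvestrol; log2 change 0.65 ± 0.16, adjusted p = 0.067 by edgeR, 3.2e-05 with the block and 0.044 by DESeq2 without it). RRP1 and NOP2, the latter a methyltransferase of 28S ribosomal RNA, had log2 changes of 0.41 and 0.36 (adjusted p = 0.0011 and 0.0016 by edgeR with the block). RRP1B and RRS1 were called in neither fit.

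Of the 9 factors of the 40S subunit, none was called lower in either fit. TSR1, which holds late 40S precursors until they are mature, had 125 RPKM in the untreated library, 121 with DMSO at 1 h, and 119 and 95.3 with DMSO at 2 h. With Silvestrol it had 152 RPKM at 1 h and 170 and 145 at 2 h. All 3 Silvestrol values exceeded all 4 controls. The log2 change at 2 h was 0.69 ± 0.13 (SE, adjusted p = 0.041 by edgeR and 1.7e-12 with the block). The call was lost without the passage 4 DMSO library (adjusted p = 0.071), without either Silvestrol library (0.28 and 0.20) and with a correction for counted length but no block (0.089). EMG1, a methyltransferase of 18S ribosomal RNA, showed the same order of libraries, with 120 to 131 RPKM in the 4 controls, 166 RPKM at 1 h of Silvestrol and 186 and 166 RPKM at 2 h. Its log2 change of 0.61 ± 0.15 (SE) missed the threshold by edgeR (adjusted p = 0.062) and passed it with the block (2.0e-07) and by DESeq2 (0.031). BYSL and NOC4L were called higher with the block only (log2 changes of 0.41 and 0.32, adjusted p = 3.1e-05 and 0.029 by edgeR with the block). NOP14, RRP12, NOB1, LTV1 and PNO1 were called in neither fit.

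In the Pol I group, 4 of 8 genes were called higher and 1 lower with the block, and none without it. RRN3, the factor that recruits Pol I to its promoter in response to growth signals, had 13.5 RPKM in the untreated library, 11.4 with DMSO at 1 h and 12.3 and 7.70 with DMSO at 2 h. With Silvestrol it had 14.4 RPKM at 1 h and 16.6 and 11.7 at 2 h, higher than the DMSO library of the same time and passage each time. The log2 change was 0.65 ± 0.23 (SE, adjusted p = 0.13 by edgeR and 7.8e-04 with the block). The Pol I subunits POLR1B, POLR1C (shared with Pol III) and POLR1E had log2 changes of 0.26 to 0.36 with the block, all called higher. UBTF, the factor that opens ribosomal DNA chromatin for Pol I, was the member called lower. It had 50.7 RPKM untreated, 45.5 with DMSO at 1 h and 39.2 and 42.2 with DMSO at 2 h, and with Silvestrol 34.1 at 1 h and 28.2 and 27.5 at 2 h. All Silvestrol values lay below all controls (log2 change -0.38 ± 0.14, adjusted p = 0.13 by edgeR and 0.0044 with the block). POLR1A, the largest Pol I subunit, POLR1D and TAF1C were called in neither fit.

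Among the snoRNP proteins, NOP10, NOP56 and RRP9 were called higher with the block (log2 changes of 0.60, 0.34 and 0.39) and none was called without it. NOP10 had 597 and 488 RPKM with DMSO at 2 h and 853 and 577 RPKM with Silvestrol, and 541 against 813 RPKM at 1 h. GAR1, a further H/ACA protein, had 102 and 90.1 RPKM with DMSO at 2 h and 69.1 and 51.9 RPKM with Silvestrol, with no overlap. On read counts its log2 change was -0.33 ± 0.16 (SE, adjusted p = 0.24 by edgeR and 0.053 with the block), and it was called lower only when the counted length entered the fit together with the block (-0.53, adjusted p = 0.0015 by edgeR). NHP2 went in opposite directions, from 3.29 to 10.1 RPKM in passage 3 and from 28.1 to 5.25 RPKM in passage 4, on 8, 14, 37 and 4 reads. FBL, NOP58 and DKC1, the pseudouridine synthase of the H/ACA particles, were called in neither fit. Of the abundant nucleolar proteins, NCL was called higher with the block (0.37 ± 0.10 without it, adjusted p = 0.078 by edgeR and 1.7e-05 with the block). NPM1 went from 1.34 to 5.06 RPKM in passage 3 and from 17.1 to 12.3 RPKM in passage 4, and was not called. GNL3 (nucleostemin) was not called.

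**Figure D2:**
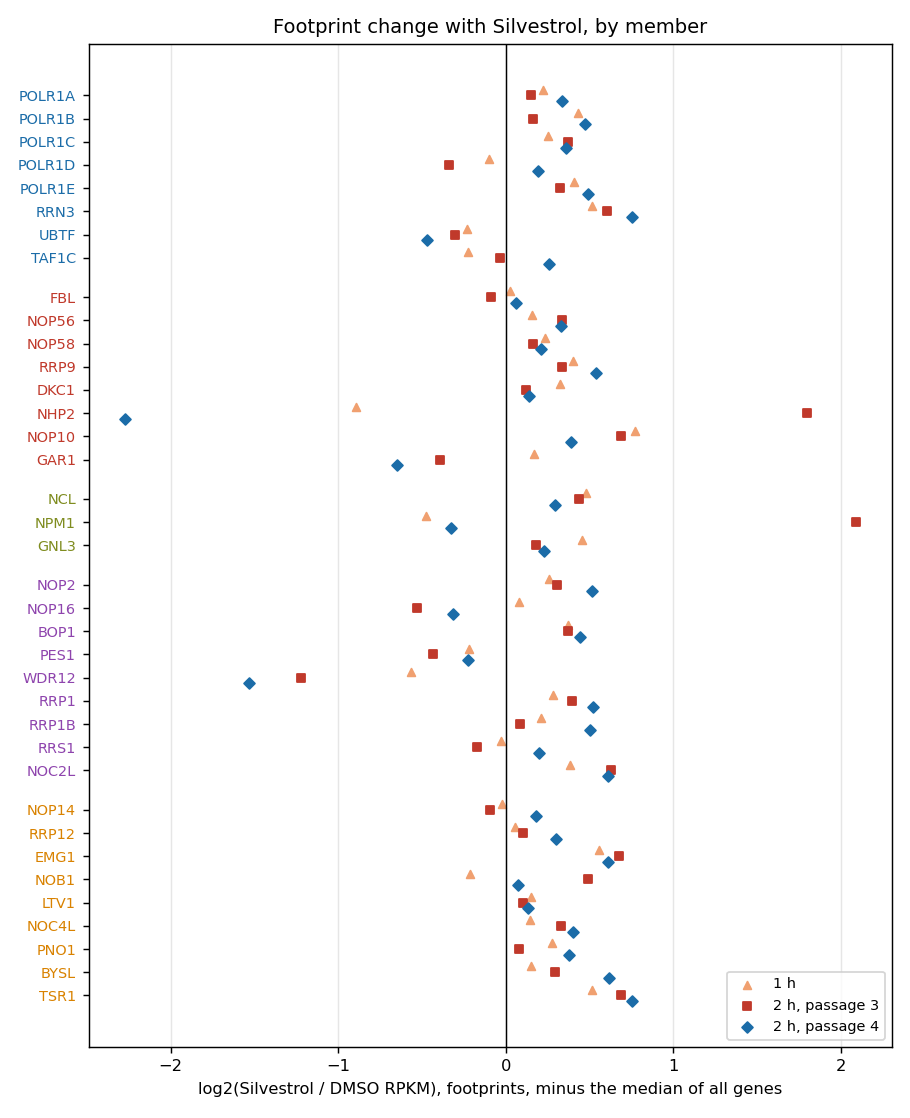
Footprint change of each member with Silvestrol (log2 ratio of RPKM minus the median of all genes) at 1 h and at 2 h in passages 3 and 4, 1 symbol per pair of libraries. Most members lie right of 0 in every pair, WDR12 and UBTF lie left of 0 in every pair, and NHP2 and NPM1 change side between pairs.

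The change at 1 h, measured on 1 library per group and therefore without a test, was in the same direction for most members. Of 37, 24 were above the median of all genes at 1 h and in both passages at 2 h, and 3 (WDR12, UBTF and PES1) were below it in all 3 pairs. The shares of all genes over the 3 pairs were not counted. In both passages at 2 h alone, 40.4% of all genes were above and 40.4% below. Past 1.5-fold, NOP10 was higher (0.77 on the centred log2 scale) and NHP2 lower (-0.89, on 20 and 7 reads), that is 1 member in each direction, when 5.0% of all genes were higher and 14.1% lower. Without NHP2 and NPM1, no member was lower past 1.5-fold. WDR12 just missed that limit at 1 h (-0.56).

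Footprint changes followed the length of the 5′ UTR among the members as they did among all genes. Spearman's coefficient between annotated 5′ UTR length and the 2 h log2 change was -0.56 across the 37 members and -0.59 across 9084 genes, which are not independent replicates and share the same libraries. Of the 11 members with a 5′ UTR of at most 40 nt, 10 were called higher and none lower with the passage block. In that length class 62.2% of all genes were called higher and 2.93% lower. Of the 22 members between 40 and 150 nt, NHP2 and NPM1 among them, 6 were called higher and 1 lower, when 31.0% of all genes of that class were called higher and 14.6% lower. The 4 members with at least 150 nt split into 2 called lower (WDR12 and UBTF) and 2 not called (NOP58 and TAF1C), when 49.4% of all genes of that class were called lower. The median log2 change of members and of all genes was 0.39 and 0.44 in the short class, 0.17 and 0.14 in the middle class and -0.16 and -0.40 in the long class. NOP16 (59 nt) is the member called lower with a 5′ UTR shorter than the median of all genes.

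**Figure D3:**
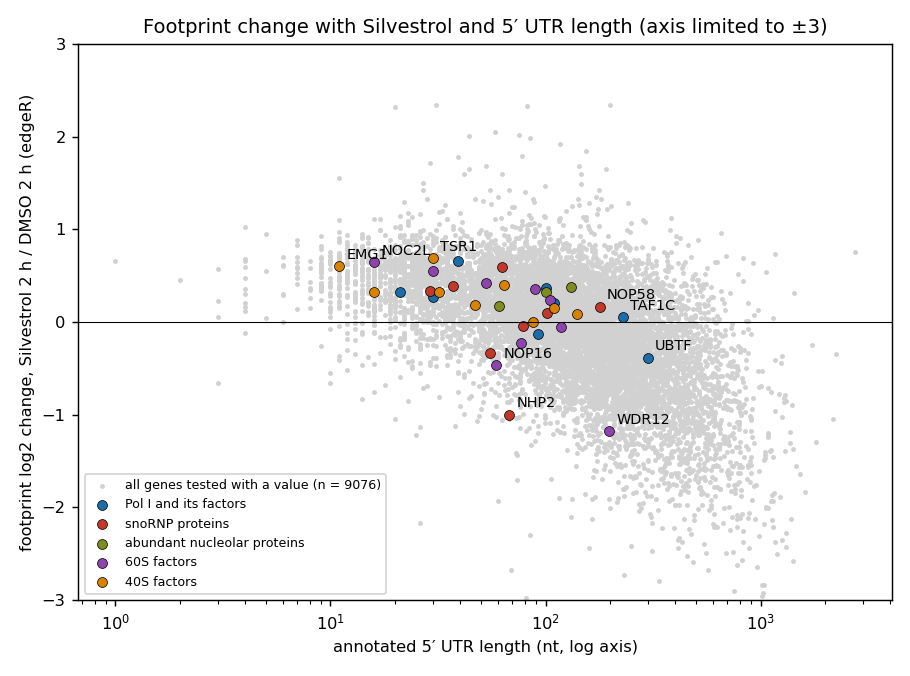
Footprint log2 change at 2 h of Silvestrol (edgeR) against annotated 5′ UTR length (nt, log axis); each grey point is a tested gene and coloured points are the members by role (6 genes lie beyond the plotted range). The members follow the slope of all genes, with EMG1, NOC2L and TSR1 at the short, high end and WDR12 and UBTF at the long, low end.

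mRNA was measured in 1 library per group, so its changes have no replicate check. Past 1.5-fold after centring on all genes, 5 members were higher and 5 lower (13.5% each; 4 of 35 lower without NHP2 and NPM1), when 16.3% of all genes were higher and 13.8% lower. NOP58, a core protein of the box C/D snoRNPs, went from 22.2 to 44.7 RPKM (centred log2 change of 0.97). LTV1, a 40S export factor, went from 13.1 to 23.2 RPKM (0.78) and GNL3 from 50.9 to 87.7 RPKM (0.74). GAR1 (0.65) and NCL (0.62) were the other higher members. BOP1 went from 60.9 to 21.9 RPKM (-1.52), NHP2 from 77.1 to 36.7 RPKM (-1.11) and NOC2L from 41.7 to 20.7 RPKM (-1.05). NOB1, the endonuclease that makes the final cut of 18S ribosomal RNA, went from 22.9 to 14.0 RPKM (-0.75), and NOP10 from 205 to 134 RPKM (-0.66). The counted length differed between the 2 mRNA libraries in some genes (1.66-fold in BOP1, 1.41-fold in NOC2L and 1.40-fold in NOB1). With reads scaled to library depth alone, the centred change was -0.86 in BOP1, -0.63 in NOC2L, -0.34 in NOB1, 0.56 in GAR1 and 0.51 in NCL, the last 3 being within 1.5-fold, which left 3 members higher and 4 lower, or 3 lower without NHP2 and NPM1 (15.7% of all genes were higher and 13.1% lower). WDR12 (11.9 and 11.0 RPKM) and TSR1 (23.9 and 27.2 RPKM) were within 1.5-fold in mRNA.

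These mRNA changes moved with base composition. Spearman's coefficient between the GC content of the coding sequence and the centred mRNA change was -0.58 across the members and -0.61 across 9084 genes. The 5 members with higher mRNA had coding GC contents between 39.7% and 50.7%, and the 5 with lower mRNA between 52.1% and 65.4%, without overlap. The ratio of the 2 DMSO RF libraries (passage 4 over passage 3), in which no drug differs, also moved with GC content (-0.61 across the members and -0.33 across 9052 genes). The part of base composition in the mRNA changes was not tested.

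**Figure D4:**
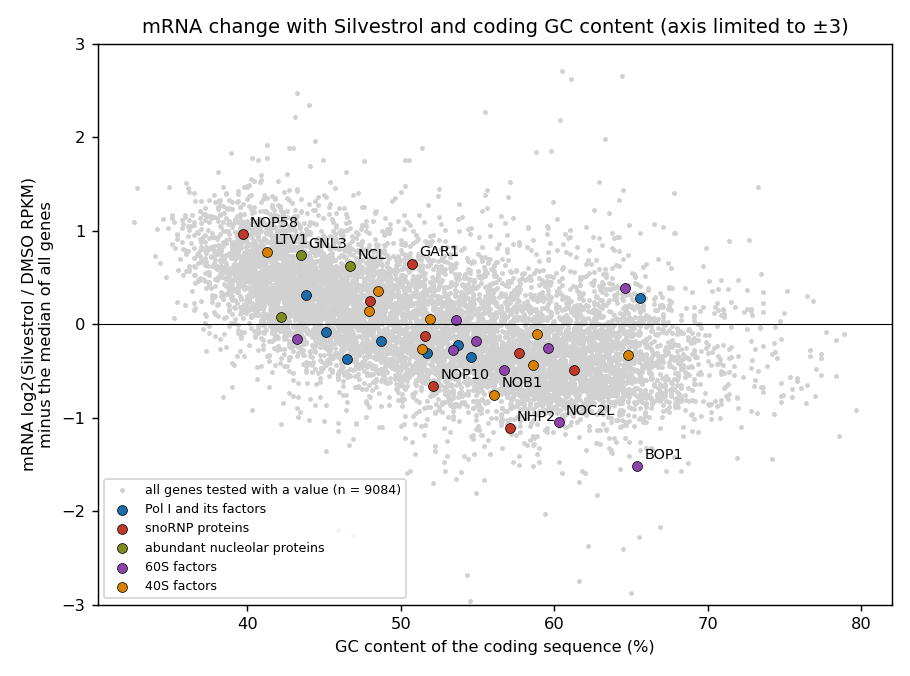
Change in mRNA with Silvestrol at 2 h (log2 ratio of RPKM minus the median of all genes, 1 library per group) against GC content of the coding sequence; grey points are tested genes and coloured points the members by role (25 genes lie beyond the plotted range). NOP58, LTV1 and GNL3 sit at the AT-rich, higher end and BOP1 and NOC2L at the GC-rich, lower end.

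Translational efficiency (TE) is the RF level divided by the mRNA level of the same gene. With DMSO at 2 h in passage 3, TE (RPKM over RPKM) ranged among the members from 0.0426 in NHP2 and 0.111 in NPM1 to 5.08 in LTV1 and 7.15 in PNO1, with a median of 2.31. The values of NHP2 and NPM1 rest on 8 and 15 RF reads. TE was compared in a single edgeR model of RF and mRNA counts with an interaction term. No member and no other gene was called (0.0% in each direction), with 9 members and 2571 of 10526 genes at an unadjusted p under 0.05, and NOC2L had the lowest adjusted p of the members (0.095). DESeq2 called 2 members higher (NOC2L and NOP10) and none lower, against 3.57% and 5.11% of all genes. With the passage block, 15 members were called higher and 5 lower (40.5% and 13.5%), against 23.1% and 22.8% of all genes. The 5 lower members were GAR1, GNL3, LTV1, NOP58 and WDR12, of which the first 4 had more mRNA with Silvestrol. In WDR12 the fall lay in the footprints (interaction of -0.94 with the block, adjusted p = 0.0080 by edgeR). Among the higher members, BOP1 (1.48), NOC2L (1.35) and NOP10 (1.32) had the largest interaction with the block, and these 3 had less mRNA with Silvestrol. The single pair of mRNA libraries enters every one of these values, with the GC relation given above. With no mRNA replicate, the p-values of the interaction, with or without the block, hold no spread between mRNA cultures. Their spread comes from the RF libraries.

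A z-score of the TE change with limits at 1.5 and -1.5, as the study used, was computed here on the log2 scale over all genes. It gave 4 higher members in passage 3 (10.8%, when 4.36% of all genes were higher) and no lower member (6.29% of all genes). They were NHP2 (2.99), NPM1 (2.09), BOP1 (1.98) and NOC2L (1.76). With the RF libraries of passage 4 in place of passage 3, NHP2 (-1.10) and NPM1 (-0.32) changed sign. BOP1 (2.16) and NOC2L (1.85) were the 2 higher members and none was lower, when 4.74% of all genes were higher and 6.72% lower. With reads scaled to library depth alone in passage 3, however, BOP1 (1.49) and NOC2L (1.35) were within the limit. On the RPKM scale these 2 also made up the count in passage 3 once NHP2 and NPM1 were left out. The lowest members in passage 3 were WDR12 (-0.97 in passage 3 and -1.33 in passage 4), GAR1 (-0.94 and -1.25) and NOP58 (-0.70 and -0.68), all within the limits.

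The INK128 experiment asked the same of mTOR inhibition, with 1 library per group and so no test. Footprints of most members were slightly lower relative to all genes, and those of RRS1 and POLR1D were lower past 1.5-fold. All 37 members had FPKM values above 0, of which 19 passed the minimum of 1 FPKM on average in RF and in total RNA. Of these 19, 1 was lower past 1.5-fold after centring (5.26%, when 6.04% of 3130 genes were lower) and none higher (6.81% of all genes). Without the minimum, 2 of 37 were lower (5.41%, against 3.95% of 13101 genes) and none higher (4.32%). The median over all 37 was -0.17, and 35 of 37 lay below the median of all genes, yet 22.9% of all genes lay below the members' median. Total RNA of the same 37 had a centred median of -0.198. Their median z-score of the TE change was 0.094, against 0.075 over all 13101 genes.

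RRS1, which helps to build the 5S ribonucleoprotein into the 60S precursor, went from 18.8 FPKM in RF with DMSO to 7.73 FPKM with INK128 (centred log2 change of -1.31), and 0.954% of all genes had a lower value. Its total RNA was at 0.660 and 0.201 FPKM, under the minimum. POLR1D, a subunit shared by Pol I and Pol III, went from 43.4 to 25.8 FPKM (-0.77 over all 13101 genes), with 2.60% of all genes lower. The next lowest were BYSL (72.6 to 55.5 FPKM, -0.41), PNO1 (18.4 to 14.2 FPKM, -0.40) and FBL (229 to 177 FPKM, -0.39), the first 2 being 40S factors. The third lowest member was thus much closer to the members' median than RRS1 and POLR1D were. In total RNA, the centred changes of BYSL, PNO1 and FBL were -0.47, -0.48 and -0.16 over all 13101 genes. GNL3 (68.9 to 74.9 FPKM, 0.10) and UBTF (12.8 to 13.7 FPKM, 0.07) were the 2 members above the median of all genes. The members with a pyrimidine run at their start had centred changes of -0.25 (NPM1, 850 to 725 FPKM), -0.39 (FBL) and -0.33 (NOB1, 28.6 to 23.0 FPKM), and POLR1D, whose annotated start has none, was lower than these 3. RRS1, the lowest member, had no matched promoter sequence, so its start was not read.

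The 82 cytosolic ribosomal protein genes in the same libraries, whose products the biogenesis factors assemble, had a median centred footprint change of -1.37, with 78 lower past 1.5-fold and none higher. The medians of the members' groups were -0.08 for Pol I, -0.14 for snoRNP proteins, -0.04 for abundant nucleolar proteins, -0.19 for 60S factors and -0.20 for 40S factors. All of these lay above the ribosomal protein median, and RRS1 (-1.31) was the member nearest to it. The 75 mitochondrial ribosomal protein genes had a median of -0.14.

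**Figure D5:**
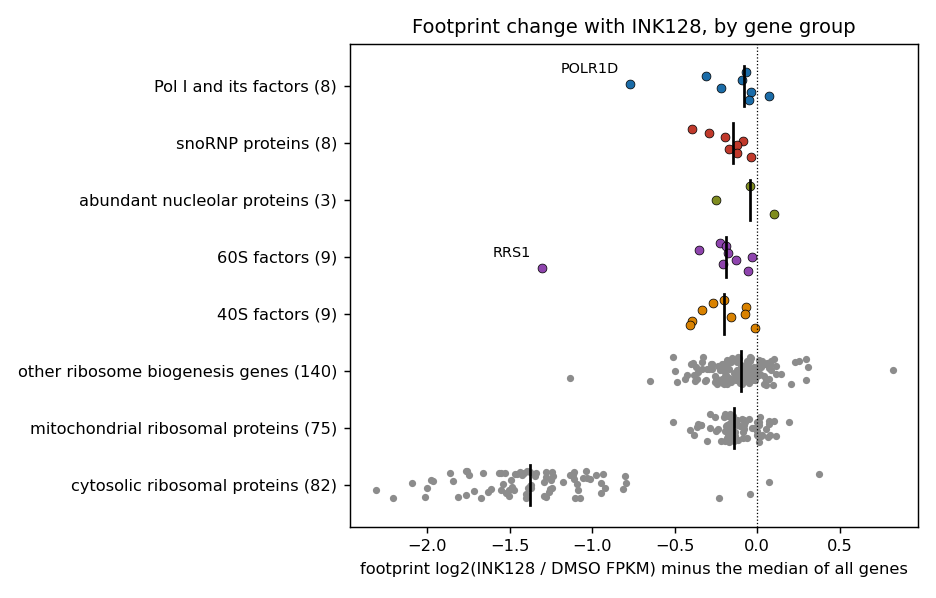
Footprint change with INK128 (log2 ratio of FPKM minus the median of all genes, 1 library per group) for the members by role, for 140 further ribosome biogenesis genes and for mitochondrial and cytosolic ribosomal protein genes; each point is a gene and black bars are medians. The members cluster just left of 0 apart from POLR1D (-0.77) and RRS1 (-1.31), while cytosolic ribosomal protein genes centre on -1.37.

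Total RNA in the INK128 experiment had a median log2 ratio of -1.17 over all genes before centring, so that changes can only be read relative to that shift. After centring, none of the 19 members was called past 1.5-fold (0.895% of all genes were lower and 13.9% higher), and without the minimum 2 of 37 were lower (5.41%, against 6.32% of all genes) and none higher (10.6%). These were LTV1 (0.476 to 0.107 FPKM, -0.98) and RRP1B (0.750 to 0.201 FPKM, -0.73), both at low levels. On the z-score of the TE change, none of the 19 members passed the limits, against 7.03% of all genes lower and 1.09% higher. The lowest were BOP1 (-0.50), POLR1D (-0.47) and FBL (-0.10) and the highest were GAR1 (0.67), NOP14 (0.52) and GNL3 (0.48). Without the minimum, RRS1 was the lowest member (-1.21) and LTV1 the only one past the limit (1.63), against 3.76% of all genes higher and 5.65% lower. The median z-score of ribosomal protein genes was -2.08 on that scale.

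Set side by side, the lowest and highest members in footprint change were different genes with each drug. WDR12, the lowest member with Silvestrol, had 14.8 and 14.7 FPKM in RF with DMSO and INK128 (-0.03). TSR1 had 25.3 and 25.4 FPKM (-0.01). RRS1, the lowest with INK128, had 54.1 and 33.7 RPKM with DMSO at 2 h and 42.6 and 34.9 RPKM with Silvestrol (log2 change -0.06 ± 0.30, SE). Spearman's coefficient between the footprint changes with Silvestrol and with INK128 was 0.06 over the 37 members, which come from separate libraries.

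A wider list of further genes of the same pathway was read the same way. Its 152 symbols held some genes under both an older and a newer name. Of the 134 that could be tested with Silvestrol, 2 were called lower and 5 higher (1.49% and 3.73%), when 7.58% and 2.16% of all genes were, and 15 and 57 with the passage block (11.2% and 42.5%), when 28.1% and 25.0% of all genes were. SENP3, a SUMO protease of the 60S pathway, had the lowest log2 change, from 48.3 and 37.4 RPKM with DMSO at 2 h to 12.1 and 11.5 RPKM with Silvestrol (-1.73 ± 0.22 SE, adjusted p = 0.022 by edgeR). It was followed by RPP25, a subunit of RNases P and MRP (-1.31, adjusted p = 0.066 by edgeR), and PIH1D1, which helps to assemble snoRNPs (-0.86, adjusted p = 0.039 by edgeR). The highest were RSL24D1 (1.30, not called, adjusted p = 0.57 by edgeR), the Pol I subunit TWISTNB (0.80, adjusted p = 0.044 by edgeR) and the exonuclease XRN2 (0.78, from 149 and 142 to 224 and 236 RPKM, adjusted p = 0.027 by edgeR). With INK128, the median centred footprint change of the 140 genes with values was -0.10, with 2 lower and 1 higher past 1.5-fold (1.43% and 0.714%), when 3.95% and 4.32% of all genes were. TAF1D, another SL1 subunit, was lowest (41.7 to 19.3 FPKM, -1.13), followed by URB2 (-0.65) and NIP7 (-0.51), and DIEXF (0.82), TEX10 (0.31) and TAF1A (0.30) were highest. The lowest Pol I factors with INK128 were thus POLR1D among the members and TAF1D in the wider list.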

How the data were processed

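The authors trimmed the reads, removed ribosomal RNA reads and aligned the rest with Bowtie to the human genome (hg19) and to canonical UCSC transcripts. The deposited Silvestrol table gives counts of uniquely mapped reads per transcript and RPKM values, which the authors computed per kilobase of positions that only 1 transcript uses and that reads reach uniquely. The deposited INK128 table gives FPKM, and the program that made them is not given in the sources used here. Where a symbol had several entries (546 symbols), the most highly translated was used, judged by RF RPKM averaged over libraries. Genes needed RPKM above 0 in the passage 3 RF and mRNA libraries at 2 h, with and without Silvestrol. Their means had to reach 1 RPKM in these RF libraries and 0.3 RPKM in mRNA. For INK128, values above 0 and means of 1 FPKM in RF and in total RNA were needed. This left 10526 and 3130 genes.

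Counts were tested with edgeR 4.0.16 (quasi-likelihood, TMM) in R 4.3.3 with Benjamini-Hochberg adjustment at 0.05, and DESeq2 1.42.0 as the alternative. The edgeR tests without the block were also run on simulated counts, and those with the block were not. For single libraries, log2 ratios of RPKM or FPKM were centred on the median of all genes and called past 1.5-fold (0.585 on the log2 scale), with no pseudocount. TE z-scores used the mean and SD over all genes. Other settings were a replicate block, an offset for counted length (reads per RPKM), other size factors, other minimums, a pseudocount of 0.5 and leaving out each library. The labels give the passage of each culture, so same-passage libraries are paired. Their deviations from the group means correlated at 0.756 over 10526 genes, and blocked values are given beside the unblocked. 5′ UTR length and GC content came from GENCODE v44 on GRCh37.

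The 37 members and the wider list were chosen with earlier results of these data known. Members were named where called with or without the block, or among the 3 lowest or highest of the RF change or of either z-score. In the wider list, the 3 lowest and highest RF changes were named. Other members named with values (PES1, NOB1, GNL3, LTV1, PNO1, RRP1B and RRS1, and UBTF for INK128) and the GC content relation were chosen after their values were seen, as was the setting without NHP2 and NPM1.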

Additional observations from a re-analysis of the deposited data

Results flagged for a closer look

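In 3 members, the footprint change with Silvestrol at 1 h lay on the other side of the median of all genes from both passages at 2 h. GAR1 had a centred log2 change of 0.17 at 1 h and of -0.39 and -0.65 at 2 h. NOP16 had 0.082 at 1 h and -0.53 and -0.32 at 2 h. NOB1 had -0.21 at 1 h, on 326 and 186 reads, and 0.49 and 0.08 at 2 h. With 1 library per group at 1 h, the difference between the times was not tested.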

How the results depend on the processing

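The passage block moved the most counts. For RF, it called 3 members lower and 16 higher (2963 and 2630 of all genes), and with the counted-length offset 5 and 16 (3014 and 2432 of all genes), whereas the offset alone left 0 members higher, the call of TSR1 being lost. DESeq2 called 3 members and 589 of all genes higher. For the TE interaction, where no gene was called without the block, the replicate block gave 5 members lower and 15 higher (2403 and 2432 of all genes), and with the offset 5 and 16 (2304 and 2207 of all genes). DESeq2 called 0 members lower and 2 higher in TE (538 and 376 of all genes), and without a minimum 2 genes, no member among them, were called lower. Leaving out 1 library at a time gave 0 to 1 members lower and 0 to 1 higher for RF (0 to 854 of all genes lower and 0 to 243 higher), and 0 members lower and 0 to 1 higher for TE (0 to 583 of all genes lower and 0 to 317 higher). A group reduced to 1 library was assumed to vary like the other group. The RF log2 change of 9 members, called in neither edgeR fit, changed sign under some setting: TAF1C, DKC1, RRS1 and RRP12 only without single libraries (turned values of -0.14 to 0.38), and FBL, NHP2, NOP14, NPM1 and POLR1D as follows. FBL was 0.001 by DESeq2 and with DESeq2's size factors (RLE) and ranged from -0.23 to 0.19 without single libraries. NHP2 was 0.061 with the block and -2.11 to 2.06 without single libraries, NOP14 was -0.001 with the block, -0.004 without a minimum, -0.022 with a minimum of 5 and -0.14 to 0.16 without single libraries. NPM1 ranged from -0.79 to 2.56 and POLR1D from -0.33 to 0.12 without single libraries.

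Of the values without a test, the TE z-score with passage 4 RF gave 2 higher members and turned NHP2 (-1.10) and NPM1 (-0.316). Leaving out both genes also gave 2 in passage 3, BOP1 and NOC2L. Scaling to library depth without length gave 2 as well (3.99% of all genes). These were other members, because BOP1 and NOC2L were within the limit under that scaling. At 1 h, members lower past 1.5-fold numbered 2 with a minimum of 5 (13.1% of all genes), 3 without centring (21.9% of all genes) and 0 without NHP2 and NPM1. Scaling without length gave 3 members with higher mRNA (15.7% of all genes). With INK128, 2 members were lower in RF without a minimum and 0 with a minimum of 5, which 2 members passed. In total RNA 2 were lower without a minimum, and all 19 without centring, as were 85.9% of all genes, since the median log2 ratio was -1.15. For its TE z-score, the median and MAD gave 1 lower member (BOP1, -1.51; 16.5% of all genes) and the absence of a minimum 1 higher. Apart from centring, the cause of these differences was not tested. The depth of the passage 4 Silvestrol library (2652423 reads), the single mRNA, 1 h and INK128 libraries and the low total RNA FPKM limit what the members' values can show.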
